A study of Mus musculus with 6 samples.

Results

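The genes described here encode the core of the transforming growth factor beta (TGF-beta) pathway: the ligand Tgfb1, the receptors Tgfbr1, Tgfbr2 and Tgfbr3, the signal carriers Smad2, Smad3 and Smad4, the inhibitory Smad7, and the SKI corepressors Ski and Skil. They were taken by symbol from a table of read counts, which held all 10 of them among 31017 genes. The table comes from RNA sequencing of mouse Th17 cells, helper T cells named for interleukin 17, differentiated in culture, in 3 control libraries (genotype WT) and 3 RTF1-deficient libraries (genotype KO). RTF1 travels with RNA polymerase II and the PAF1 complex and stimulates ubiquitination of histone H2B. The study asked what its loss does to gene expression in these cells. Neither the deletion strategy, the mouse strain and age, nor the culture cytokines are given in the sources used here. The labels do not say that the 3 libraries of a group came from separate animals or cultures, so p-values measure only the spread between these libraries.

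Active TGF-beta binds TGFBR2, a kinase that recruits and phosphorylates TGFBR1. TGFBR1 then phosphorylates SMAD2 and SMAD3, which join SMAD4 and act on genes in the nucleus. TGFBR3, or betaglycan, is a co-receptor that presents ligand. SMAD7 binds the receptors and blocks the signal, and it is itself induced by the pathway as feedback. SKI and SKIL bind SMAD complexes, hold target genes silent and are degraded when the pathway is active. In helper T cells TGF-beta together with interleukin 6 favours the Th17 fate, whereas TGF-beta alone favours Foxp3+ regulatory T cells.

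Sequence just before the transcription start is shown for Ski and Tgfbr2, since both were higher in KO and both have a promoter in the RefSeq table (GRCm38.p6), which held windows for 5 of the 10 genes. The windows are the 250 bases before the RefSeq start, 5′ to 3′ on the gene's strand (the minus strand for both), chr4:155222536-155222785 for Ski and chr9:116175364-116175613 for Tgfbr2. The RefSeq start of Ski differs from the start in GENCODE M21, the source of the gene coordinates given with the values. The GENCODE gene begins inside the Ski window, so the last bases printed lie within that gene model. Capitals mark matches, on either strand, to CAGAC, the short SMAD-binding box, and to GGCGC, a GC-rich sequence that SMAD proteins also bind.
Ski: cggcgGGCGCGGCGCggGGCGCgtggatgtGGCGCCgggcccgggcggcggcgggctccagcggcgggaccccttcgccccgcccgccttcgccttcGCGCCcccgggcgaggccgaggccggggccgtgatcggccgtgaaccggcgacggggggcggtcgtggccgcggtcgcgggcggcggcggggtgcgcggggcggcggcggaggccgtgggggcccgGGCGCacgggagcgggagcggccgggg
Tgfbr2: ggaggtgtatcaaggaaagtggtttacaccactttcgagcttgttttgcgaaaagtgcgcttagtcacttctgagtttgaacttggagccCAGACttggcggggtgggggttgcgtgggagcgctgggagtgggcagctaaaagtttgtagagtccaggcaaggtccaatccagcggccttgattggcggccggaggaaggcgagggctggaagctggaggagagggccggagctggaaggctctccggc
The Ski window held 7 matches to GGCGC, some of them overlapping one another, and no CAGAC, in a sequence of 87.6% G and C. The Tgfbr2 window held 1 CAGAC and no GGCGC at 58.4% G and C. Of 32851 RefSeq promoter windows of this length, 42.2% held CAGAC and 32% held GGCGC, so neither match is rare. The palindromic box GTCTAGAC stood in 0.167% of windows and in none of those of the members. A match describes letters only.

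Library totals ran from 16489813 to 51271226 counts. Rtf1 itself, which checks the labels, held 88.3 to 94.0 CPM in control and 26.2 to 45.3 CPM in KO (log2 fold change −1.42, edgeR adjusted p = 0.000755). CPM stands for counts divided by the library's total, adjusted with TMM factors, and expressed on a common scale. On the log2 scale a difference of 1 means a doubling. T cell genes such as Cd3e and Trac and the Th17 genes Il17a and Il17f were present in both groups. The summed level of 8 T helper and Th17 markers was 2590 to 3140 CPM in control and 1420 to 1980 CPM in KO, with 4 markers called lower and 1 higher. Of 6 myeloid markers, Cd68 and Csf1r were called higher in KO, and the summed level was 2.13 to 5.04 CPM in control and 17.2 to 27.7 CPM in KO. Cd68 alone made up most of that sum in each library. In replicate order it held 3.34, 1.80 and 4.42 CPM in control and 13.3, 21.4 and 25.3 CPM in KO. Csf1r held 0.206 to 0.451 CPM in control and 0.587 to 1.63 CPM in KO. Lyz2 (0 to 0.095 CPM in control, 0.294 to 1.75 CPM in KO) and Itgax (0 to 0.0608 CPM in control, 0.305 to 0.759 CPM in KO) were too low to be tested but also lay higher in each KO library than in any control library. The remaining myeloid markers, Itgam and Adgre1, stayed at 0.134 CPM or less in each library. Markers of CD8 T and NK cells summed to 10.7 to 14.9 CPM. Those of B cells, erythroid cells and fibroblasts summed to 4.13 CPM or less in each library. Libraries numbered 3 in both groups carried Y-linked counts and the others nearly none, so replicate 3 differs in sex from replicates 1 and 2. In bulk RNA, fewer cells of a type and less RNA per cell cannot be told apart.

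All 10 genes were well counted, from 646 counts (Smad7, control replicate 1) to 13843 (Skil, KO replicate 2). In RTF1-deficient cells 6 genes of the core pathway did not pass the test and 4 differed from control. Tgfbr3 fell to 31.3% of its control level, Smad7 rose to 199%, Ski to 147% and Tgfbr2 to 133%. The ligand, the type I receptor, the signal-carrying SMADs and Skil were not called. A gene was called when its adjusted p was under 0.05 in edgeR's quasi-likelihood test over the 14268 genes that passed a filter on low counts, and all 10 members passed it. The calls were 4 of 10, against 46.1% of all tested genes, so the members were called about as often as any gene. By direction, 3 were higher and 1 lower, where 23.2% and 22.9% of all tested genes were called higher and lower. CPM ranges of the groups did not overlap in 5 members, against 57.9% of all tested genes. The median log2 fold change of the members was 0.17, beside 0.013 for all tested genes. This fit did not use the replicate numbers. With the replicate number as a block, a reading described below, 6 of the 10 members were called, beside 7628 of all tested genes.

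**Figure D1:**
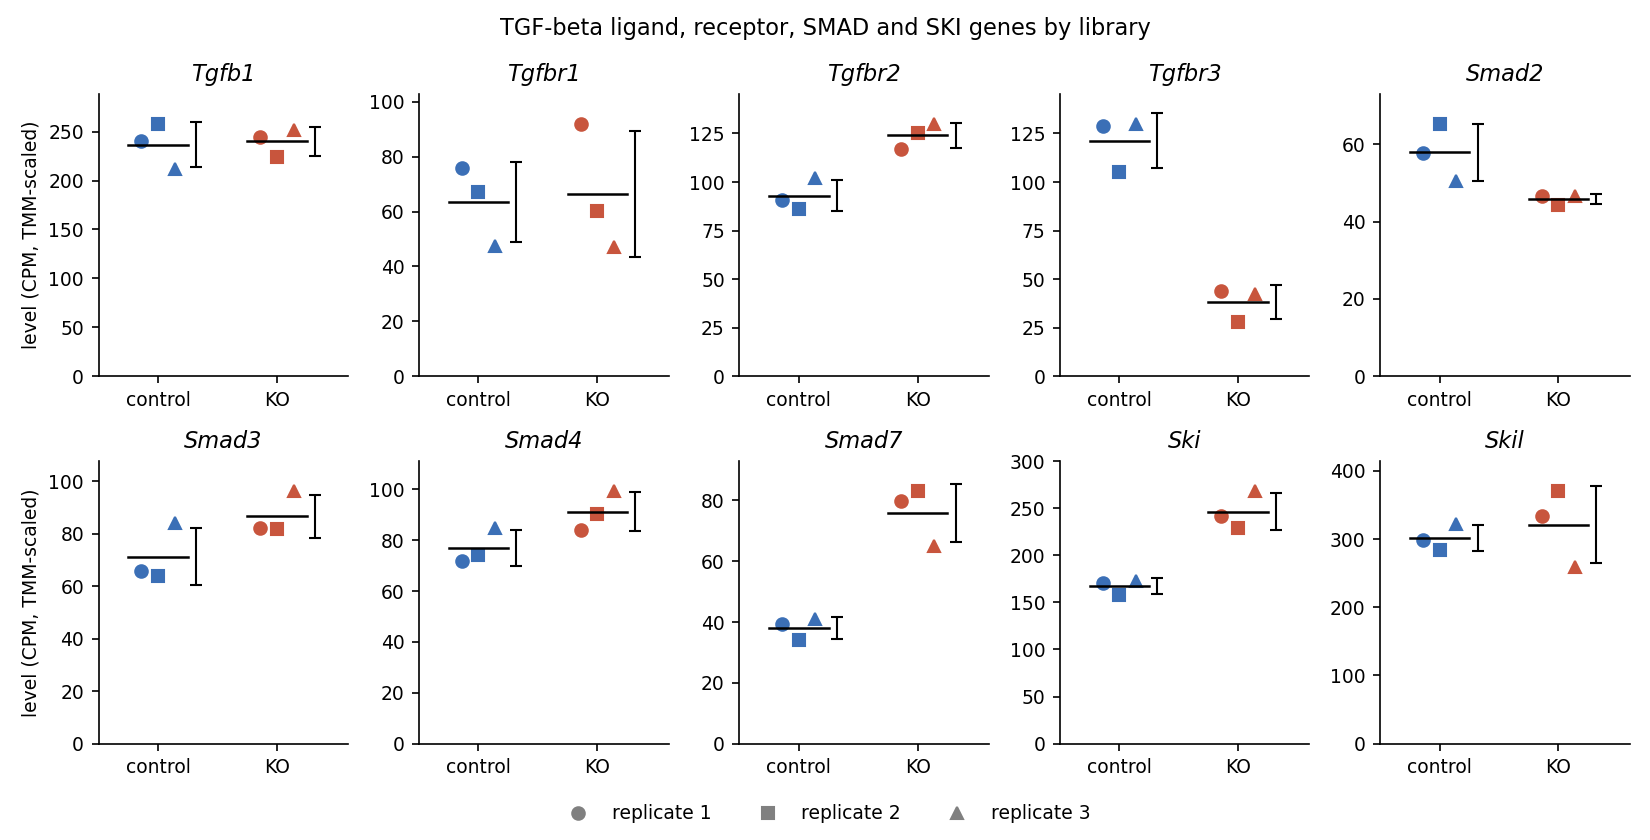
Level of each of the 10 genes in CPM (vertical axes from 0, TMM-scaled) in control (blue) and KO (red). Points are libraries, with shape giving the replicate number, horizontal lines are means and bars are SD over 3 libraries. Tgfbr3 in KO (27.9 to 43.9 CPM) lies below every control library (105 to 130 CPM), Tgfbr2, Smad7 and Ski lie above, and Tgfb1, Tgfbr1 and Skil overlap.

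The ligand came first in the pathway and showed little difference. Tgfb1 encodes TGF-beta 1, an isoform made by T cells, and lies on chromosome 7 (mm10, 25687002 to 25705077, plus strand). In replicate order, control libraries held 240, 258 and 212 CPM and KO libraries 244, 224 and 252 CPM. The groups overlapped, with the highest and the lowest library both in control. Its log2 fold change was 0.021 (SE 0.119, 95% interval −0.25 to 0.29, edgeR adjusted p = 0.898). The sign turned without control replicate 1 (−0.040), control replicate 3 (−0.11) or KO replicate 3 (−0.015), and with the libraries numbered 1 and 2 alone (−0.090).

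The 3 receptor genes differed in 3 ways: one did not pass the test, one was higher and one was much lower. Tgfbr1, the type I receptor kinase that phosphorylates SMAD2 and SMAD3 (chromosome 4, 47353222 to 47414931, plus strand), held 75.8, 67.2 and 47.5 CPM in control and 92.0, 60.2 and 47.1 CPM in KO, in replicate order. Replicate 3 was the lowest and replicate 1 the highest in each group, and the groups overlapped, although KO replicate 1 stood above every control library. Its log2 fold change was 0.068 (SE 0.252, 95% interval −0.50 to 0.64, edgeR adjusted p = 0.844). Leaving out control replicate 3 gave −0.16, and leaving out KO replicate 1 gave −0.25.

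Tgfbr2, the ligand-binding type II receptor kinase (chromosome 9, 116084293 to 116175360, minus strand, with the promoter window printed above), held 90.7, 86.3 and 102 CPM in control. In KO it held 117, 125 and 130 CPM. Every KO library stood above every control library, and the rise was modest, 1.33-fold (log2 fold change 0.41, SE 0.111, 95% interval 0.16 to 0.67, edgeR adjusted p = 0.0149). The call was lost without control replicate 1 (0.33, adjusted p = 0.0926), KO replicate 2 (0.41, adjusted p = 0.0547) or KO replicate 3 (0.38, adjusted p = 0.0577), and adjusted p ran from 0.00699 to 0.0926 over the 14 alternatives tried.

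Tgfbr3, the co-receptor betaglycan (chromosome 5, 107106570 to 107289629, minus strand), changed most among the 10 genes. It held 129, 105 and 130 CPM in control replicates and 43.9, 27.9 and 42.4 CPM in KO replicates. The highest KO library lay far below the lowest control library, and the lowest library of each group was replicate 2. Its log2 fold change was −1.67 (SE 0.184, 95% interval −2.09 to −1.26, edgeR adjusted p = 0.000348), a 3.19-fold decrease. A larger change in either direction was seen in 9.98% of tested genes. The call and direction held in all 14 alternatives, with values from −1.80 to −1.49 and adjusted p of at most 0.00184. In the GENCODE M21 annotation 4.54% of the exonic bases of Tgfbr3 overlap Gm43422 on the same strand, so part of its counts could have been assigned elsewhere.

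The receptor-activated SMADs, Smad2 and Smad3, are close relatives that carry the signal from TGFBR1, and their values lay in opposite directions, although neither was called. Smad2 (chromosome 18, 76241580 to 76310963, plus strand) held 57.8, 65.3 and 50.6 CPM in control and 46.6, 44.3 and 46.6 CPM in KO. The KO values were close together and under the lowest control value. KO differed from control by −0.34 on the log2 scale (SE 0.125, 95% interval −0.62 to −0.053, edgeR adjusted p = 0.0533). Smad3 (chromosome 9, 63646767 to 63757994, minus strand) held 65.9, 64.0 and 83.9 CPM in control and 82.3, 81.6 and 96.1 CPM in KO, a log2 difference of 0.28 (SE 0.138, 95% interval −0.032 to 0.59, edgeR adjusted p = 0.124). Replicate 3 was the highest library of each group, and control replicate 3 stood above KO replicates 1 and 2.

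The replicate numbers were read as pairing from the correlation of the libraries' deviations. That reading is uncertain for number 2, since control replicate 2 correlated more with KO replicate 1 (0.204) than with KO replicate 2 (0.130). With the number as a block in the edgeR fit both genes passed the test. Smad2 then gave −0.33 (adjusted p = 0.0449) and Smad3 gave 0.29 (adjusted p = 0.0394). Within each number Smad2 was lower in KO, by log2 differences of −0.31, −0.56 and −0.12, and Smad3 was higher, by 0.32, 0.35 and 0.19. Without control replicate 3 both were also called, Smad2 at −0.49 (adjusted p = 0.0119) and Smad3 at 0.36 (adjusted p = 0.0419). With upper-quartile factors Smad2 was called at −0.35 (adjusted p = 0.0321), and with the libraries numbered 1 and 2 alone at −0.44 (adjusted p = 0.0222). Over the 14 alternatives adjusted p ran from 0.0119 to 0.167 for Smad2 and from 0.0394 to 0.436 for Smad3.

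Smad4, the partner that both share (chromosome 18, 73639009 to 73703780, minus strand), held 71.7, 74.3 and 84.9 CPM in control and 84.0, 90.3 and 99.2 CPM in KO. Control replicate 3 stood just above KO replicate 1, so the groups overlapped. Within each number KO was higher, by log2 differences of 0.23, 0.28 and 0.22. The log2 fold change was 0.24 (SE 0.117, 95% interval −0.022 to 0.51, edgeR adjusted p = 0.118). It was called when libraries were scaled by their size alone (0.33, adjusted p = 0.043), while adjusted p over all alternatives ran from 0.043 to 0.488.

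Smad7, the inhibitory SMAD that blocks the receptors (chromosome 18, 75367529 to 75395935, plus strand), held 39.3, 34.1 and 40.9 CPM in control. In KO it held 79.7, 83.0 and 64.9 CPM. Each KO library stood well above each control library, with the smallest distance in replicate 3. KO exceeded control by 0.996 on the log2 scale (SE 0.136, 95% interval 0.69 to 1.30, edgeR adjusted p = 0.000803). Within the numbers 1, 2 and 3 the log2 differences were 1.02, 1.28 and 0.67. The call held in all 14 alternatives, with values from 0.91 to 1.15 and adjusted p of at most 0.00633.

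The corepressors Ski and Skil, which bind SMAD complexes at target genes, had unlike values. Ski (chromosome 4, 155154075 to 155222592, minus strand) held 171, 158 and 173 CPM in control and 242, 229 and 268 CPM in KO. The groups were well apart, and replicate 2 was the lowest library in each. The difference on the log2 scale was 0.56 (SE 0.113, 95% interval 0.30 to 0.81, edgeR adjusted p = 0.00431), and the call held in all 14 alternatives, with values from 0.49 to 0.64 and adjusted p of at most 0.0311.

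Skil, also known as SnoN and itself a known TGF-beta target (chromosome 3, 31095058 to 31122577, plus strand), held 298, 284 and 322 CPM in control and 334, 370 and 259 CPM in KO. KO libraries lay on both sides of the control libraries, with KO replicate 3 the lowest of all 6 and KO replicate 2 the highest. The log2 fold change was 0.091 (SE 0.148, 95% interval −0.25 to 0.43, edgeR adjusted p = 0.642). Without KO replicate 2 it was −0.019. Within the numbers 1, 2 and 3 the log2 differences were 0.17, 0.38 and −0.31.

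**Figure D2:**
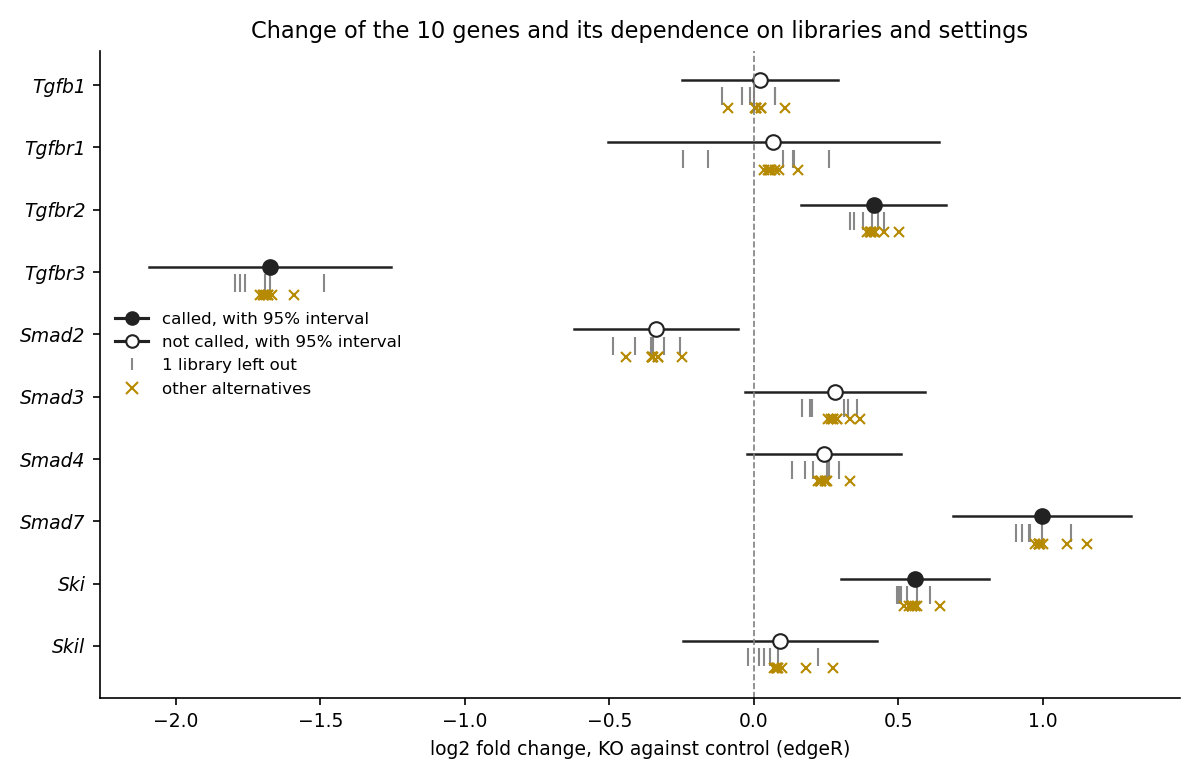
Log2 fold change of KO against control (horizontal axis, edgeR) for each of the 10 genes (vertical axis). Circles with lines are the value and its 95% interval, filled where called, ticks leave out 1 library and crosses are the other alternatives. Tgfbr3 stays between −1.80 and −1.49 and Smad7 between 0.91 and 1.15, while Tgfb1, Tgfbr1 and Skil fall on both sides of 0.

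Levels of different genes were compared as CPM per kilobase of exon, with exon lengths of GENCODE M21, which assumes that every annotated exon is used. In control the order was Tgfb1 (46.9 ± 4.60), Skil (31.1 ± 1.98), Ski (30.1 ± 1.46), Smad4 (20.7 ± 1.88), Tgfbr3 (18.5 ± 2.16), Smad3 (12.9 ± 1.98), Tgfbr2 (11.4 ± 0.989), Tgfbr1 (9.72 ± 2.22), Smad7 (8.43 ± 0.786) and Smad2 (6.59 ± 0.837; all SD, n = 3). Library ranges of neighbours overlapped for Skil and Ski, for Smad4 and Tgfbr3, and along the run from Smad3 to Tgfbr2, Tgfbr1 and Smad7. In control, then, the co-receptor was the highest of the 3 receptor genes on this scale, and the SKI genes stood above each SMAD.

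In KO the order on the same scale changed at a few places. Tgfbr3, at 5.82 ± 1.35 CPM per kilobase (SD, n = 3), was the lowest of the receptor genes, in a range that overlapped that of Smad2 (5.22 ± 0.151). Ski rose to 44.3 ± 3.57, a range that overlapped that of Tgfb1 (47.6 ± 2.86) and lay above that of Skil (33.1 ± 5.84). Smad7 stood at 16.8 ± 2.13, overlapping Smad3 (15.6 ± 1.48) and Tgfbr2 (15.1 ± 0.801). Smad4 (24.6 ± 2.06) and Tgfbr1 (10.2 ± 3.53) kept their places in the order.

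**Figure D3:**
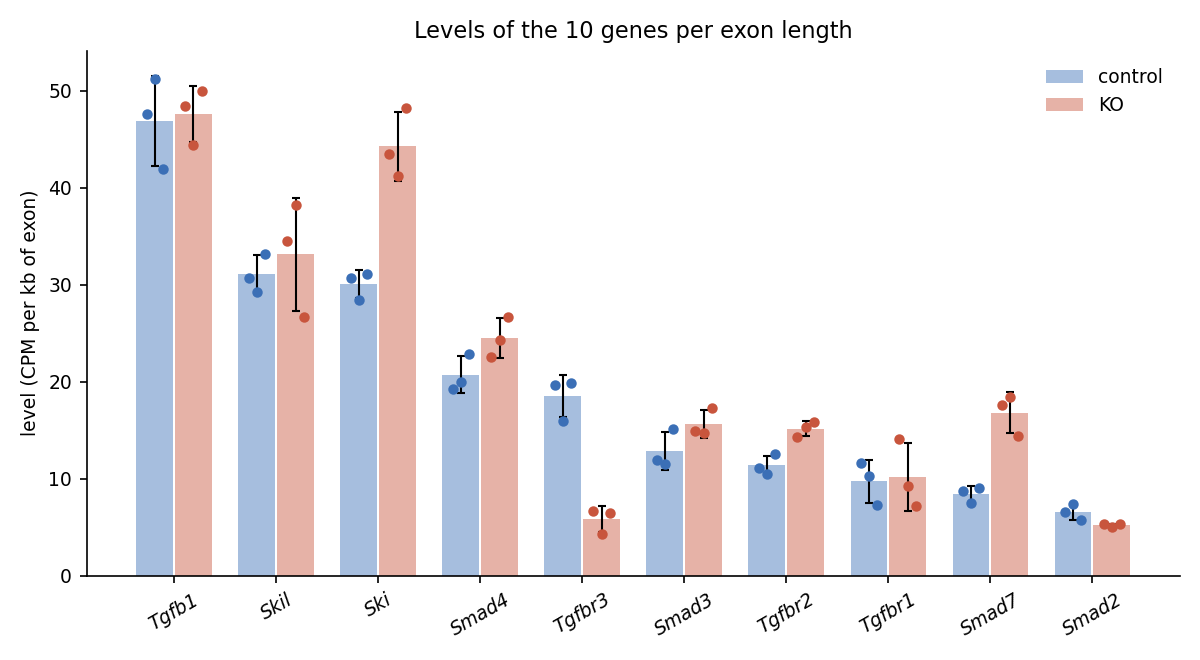
Level of each gene in CPM per kilobase of exon (vertical axis from 0), ordered by the control mean. Bars are means of control (blue) and KO (red), points are libraries and error bars are SD over 3 libraries. Tgfbr3 drops from 18.5 to 5.82 and Smad7 goes from 8.43 to 16.8, while Tgfb1 is the highest gene in both groups.

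Ratios between 2 genes of the same library do not depend on how libraries are scaled, and 6 were computed from counts per kilobase of exon. They were chosen after the values were seen and are given as a description, with no test. The ratio of Tgfbr3 to Tgfbr2, co-receptor to signalling receptor, was, in replicate order, 1.77, 1.53 and 1.59 for control and 0.470, 0.278 and 0.408 for KO. Per kilobase, co-receptor counts exceeded those of the type II receptor in each control library and were under them in each KO library. The ratio of Tgfbr2 to Tgfbr1 overlapped between the groups, at 0.955, 1.02 and 1.72 in control and 1.01, 1.66 and 2.21 in KO.

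The ratio of Smad3 to Smad2 was 1.81, 1.55 and 2.63 in control and 2.80, 2.92 and 3.27 in KO, so that each KO library had more Smad3 relative to Smad2 than any control library. Smad7 relative to Smad3, the inhibitor against a signal carrier, was 0.731, 0.653 and 0.597 in control and 1.19, 1.25 and 0.828 in KO. The inhibitor was thus the higher of the pair in KO replicates 1 and 2 and the lower in the other 4 libraries. Ski relative to Smad4 had a mean of 1.46 ± 0.121 in control libraries and 1.81 ± 0.116 in KO libraries (SD, n = 3), without overlap. Skil relative to Ski was near 1 in control, at 0.998, 1.03 and 1.07, and lower in KO, at 0.792, 0.925 and 0.555.

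**Figure D4:**
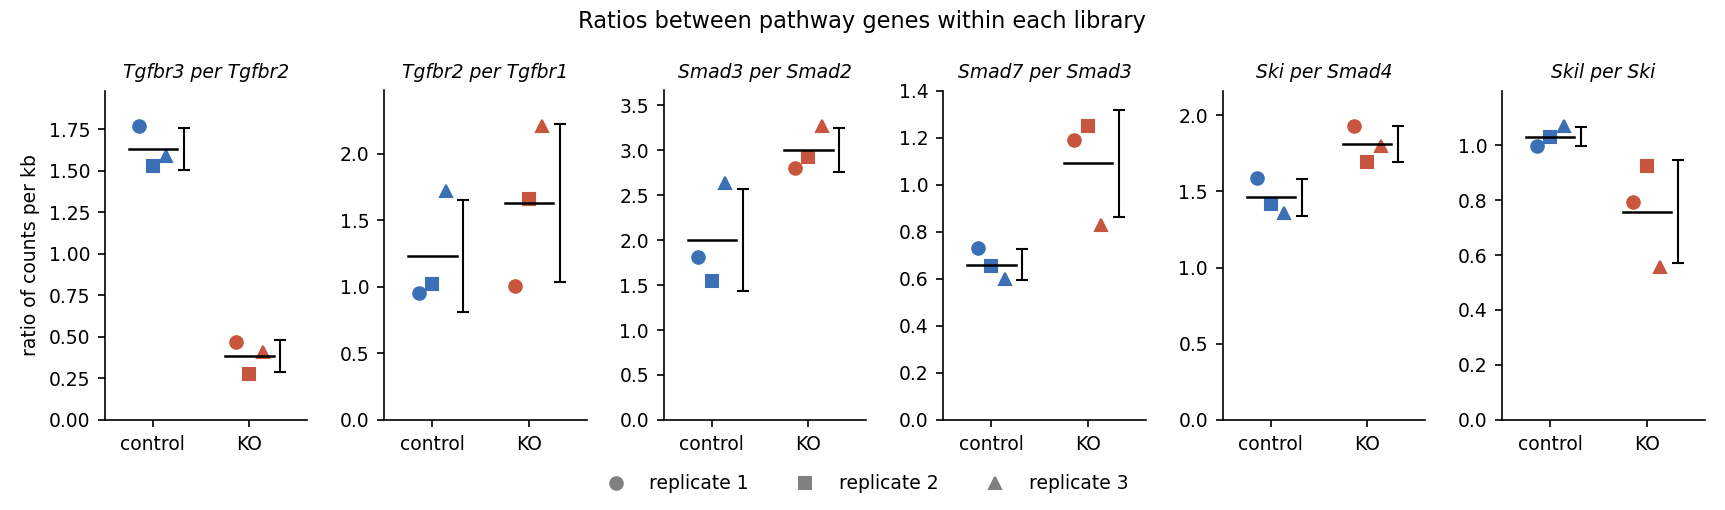
Ratio of counts per kilobase of exon between 2 genes of the same library (vertical axes from 0), in control (blue) and KO (red). Points are libraries by replicate number, lines are means and bars are SD over 3 libraries. Tgfbr3 per Tgfbr2 moves from 1.63 to 0.385 on average, and only Tgfbr2 per Tgfbr1 overlaps between the groups among the 6 ratios.

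Beyond these 10 genes, 62 others of the pathway were listed by role, of which 54 passed the filter on low counts and 27 were called, 16 higher and 11 lower. That is 50% of those tested, beside 46.1% of all tested genes. When 1 library was left out the number called fell to between 14 (without KO replicate 2) and 22, with 15 without KO replicate 3 and 17 without control replicate 1.

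Among ligands and the latent complex, which stores and releases TGF-beta, 2 of 10 tested genes were higher and 3 lower, and the median log2 fold change was 0.082. Itgb8, the integrin beta chain that with the alpha chain Itgav releases active TGF-beta, held 1, 12 and 0 counts in the control libraries and 130, 62 and 102 counts in the KO libraries, in replicate order. It rose from nearly none to 1.66 to 5.19 CPM (log2 fold change 5.03, SE 0.849, edgeR adjusted p = 0.00199), a value that was 7.45 without control replicate 2 and 4.27 without control replicate 3. Itgb8 passed the filter on low counts only through its KO libraries. The filter thus favoured a call in this direction, and the call adds no support beyond the counts. Itgav itself held 138 to 190 CPM in control and 215 to 249 CPM in KO (0.43, adjusted p = 0.04). That call was lost whenever 1 library other than control replicate 3 was left out (adjusted p from 0.0698 to 0.126), and with upper-quartile factors (adjusted p = 0.0659).

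Tgfb3, another ligand, fell from 6.57, 6.44 and 26.8 CPM in control to 2.47, 3.85 and 1.88 CPM in KO (log2 fold change −2.27, edgeR adjusted p = 0.0121). Control replicate 3 held much of that difference, and without it the value was −1.29 (adjusted p = 0.00745). Ltbp3, a latent TGF-beta binding protein, showed the same library standing out, with 1.58, 0.805 and 5.84 CPM in control and 0.190, 0.507 and 0.864 CPM in KO (−2.44, adjusted p = 0.0325). Its call was lost without control replicate 3 (−1.22, adjusted p = 0.111), KO replicate 1 (−2.05, adjusted p = 0.0886) or KO replicate 2 (−2.44, adjusted p = 0.0989). The third gene called lower was Ltbp4, named after its values were seen, at 0.599 to 1.40 CPM in control and 0.304 to 0.356 CPM in KO (−1.65, adjusted p = 0.0168). That call was lost without any one KO replicate (adjusted p from just over 0.05 to 0.0627). Furin, the protease that cuts the TGF-beta precursor, held 1010 to 1130 CPM in control and 779 to 974 CPM in KO and was not called (−0.27, adjusted p = 0.124). Lrrc32, which docks latent TGF-beta at the surface of regulatory T cells, held 15.5, 17.4 and 34.3 CPM in control and 16.3, 24.8 and 20.4 CPM in KO (−0.13, adjusted p = 0.742), and its sign turned without control replicate 3 (0.26).

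Of the other receptors of the family, which also serve activins and bone morphogenetic proteins (BMP), 3 of 9 tested genes rose and 3 fell, with a median log2 fold change of −0.014. Acvrl1, or ALK1, a type I receptor, fell from 23.6, 29.8 and 37.2 CPM to 7.48, 6.60 and 5.03 CPM (log2 fold change −2.24, SE 0.219, edgeR adjusted p = 0.000224). Bmpr1a, a type I BMP receptor, fell from 41.9, 44.9 and 47.8 CPM to 19.7, 15.5 and 15.8 CPM (−1.40, SE 0.143, adjusted p = 0.000251). Both calls held in all 14 alternatives, and the groups were far apart for both genes.

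Eng, or endoglin, a co-receptor related to betaglycan, fell from 11.7 to 14.8 CPM to 4.43 to 9.64 CPM (log2 fold change −0.88, edgeR adjusted p = 0.0301). Tgfbr3, the other co-receptor gene looked at here, was also called lower, as were 22.9% of all tested genes. The Eng call was lost without control replicate 1 or 2 or KO replicate 2 or 3 (adjusted p = 0.0533 to 0.0786). Acvr1c, or ALK7, rose from 0.243, 0.413 and 1.66 CPM to 2.39, 4.03 and 6.76 CPM (2.42, adjusted p = 0.0161), and was 3.54 without control replicate 3, with the call lost without control replicate 2 (2.03, adjusted p = 0.0563) or KO replicate 3 (1.99, adjusted p = 0.0555). The other two that rose, named after their values were seen, were the type II receptors Acvr2a (0.75, adjusted p = 0.00435) and Bmpr2 (0.54, adjusted p = 0.011). Of the other type II receptor genes, Acvr2b was not called (−0.40, adjusted p = 0.495) and Amhr2 did not pass the filter.

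Among other SMADs 3 of 4 passed the filter and 1 was called. Smad5, a carrier of BMP signals, rose from 34.7, 29.6 and 29.2 CPM to 51.3, 44.5 and 59.1 CPM (log2 fold change 0.73, SE 0.144, edgeR adjusted p = 0.00384), in all 14 alternatives. Smad1, its close relative, held 21.5 to 24.8 CPM in control and 26.5 to 27.0 CPM in KO and was not called (0.23, adjusted p = 0.16).

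Regulators of receptors and SMADs included 6 of 21 genes called higher and 3 lower, with a median log2 fold change of −0.0027. Ldlrad4, a membrane protein that binds SMAD2 and SMAD3 and dampens the signal, rose from 12.9, 12.1 and 9.36 CPM to 35.2, 30.1 and 18.9 CPM (log2 fold change 1.30, SE 0.239, edgeR adjusted p = 0.00289). Its relative Pmepa1, likewise an inhibitor, held 139, 126 and 80.0 CPM in control and 162, 142 and 125 CPM in KO and was not called (0.32, adjusted p = 0.223), but passed with the replicate block (0.34, adjusted p = 0.0369). Tgif1, a SMAD corepressor named after its values were seen, rose by a log2 fold change of 0.90 (adjusted p = 0.000529).

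Nedd4l, a ubiquitin ligase that acts on activated SMADs, fell from 12.2, 12.7 and 15.2 CPM to 5.09, 6.12 and 4.37 CPM (log2 fold change −1.36, edgeR adjusted p = 0.00115). Zfyve9, or SARA, the adaptor that brings SMAD2 and SMAD3 to the receptor, fell from 6.87, 6.34 and 9.38 CPM to 3.23, 2.62 and 3.46 CPM (−1.29, adjusted p = 0.00389). Rnf111, or Arkadia, the ubiquitin ligase that degrades SKI and SKIL, held 50 to 66.8 CPM in control and 76.0 to 77.3 CPM in KO (0.37, adjusted p = 0.0386). Its call was lost in each fit that left out 1 library except the one without control replicate 3 (adjusted p = 0.0759 to 0.122), with upper-quartile factors (0.0682) and without the filter (0.0534). Smurf1 (0.20, adjusted p = 0.222) and Smurf2 (−0.21, adjusted p = 0.179), ligases that work with SMAD7 on the receptor, were not called.

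The branch through the kinase TAK1 had 2 genes of 6 higher and 1 lower, with a median log2 fold change of 0.12. Map3k7, the gene of TAK1, held 121 to 155 CPM in control and 171 to 192 CPM in KO (0.39, edgeR adjusted p = 0.0307). The call was lost in each fit that left out 1 library except the one without control replicate 2 (adjusted p = 0.0525 to 0.172). Tab3, a partner of TAK1, held 16.7 to 21.8 CPM in control and 24.6 to 30.2 CPM in KO (0.50, adjusted p = 0.0272), a call lost in each such fit except the one without control replicate 3 (adjusted p = 0.0515 to 0.164). Tab1, the other partner named, held 14.1 to 17.8 CPM in control and 9.56 to 11.1 CPM in KO (−0.60, adjusted p = 0.0151), a call lost without KO replicate 2 (adjusted p = 0.0516) or KO replicate 3 (adjusted p = 0.0562). Ranges of the groups were apart in these 3 genes, and in 5 of the 6 genes of the branch, including the uncalled Tab2 and Daxx. The share of all tested genes with ranges apart was 57.9%.

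Genes known to respond to TGF-beta moved in both directions, 3 of 7 tested genes higher and 1 lower, with a median log2 fold change of 0.32. Of all tested genes, 23.2% were called higher and 22.9% lower. Ldlrad4, called higher, and Pmepa1 stand both in this list and among the regulators above. Tgfbi, a secreted matrix protein induced by TGF-beta, rose from 1.46, 1.05 and 0.404 CPM to 11, 6.09 and 3.97 CPM (2.92, SE 0.528, edgeR adjusted p = 0.0027). Myeloid cells also express Tgfbi, and the summed myeloid markers given above, mostly Cd68, were higher in KO too. Their part in this result was not tested. Foxp3, the regulatory T cell factor, stayed low, at 1.24 to 1.63 CPM in control and 1.93 to 4.56 CPM in KO (1.21, adjusted p = 0.0244), a call lost without control replicate 1 or 3 or KO replicate 1 or 2 (adjusted p = 0.0524 to 0.096). Itgae, the integrin chain CD103, was low in both groups, at 2.94 to 4.48 CPM (−0.040, adjusted p = 0.919), and its sign turned under several alternatives. Ctgf, the older symbol of Ccn2, and Cdkn2b did not pass the filter.

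**Figure D5:**
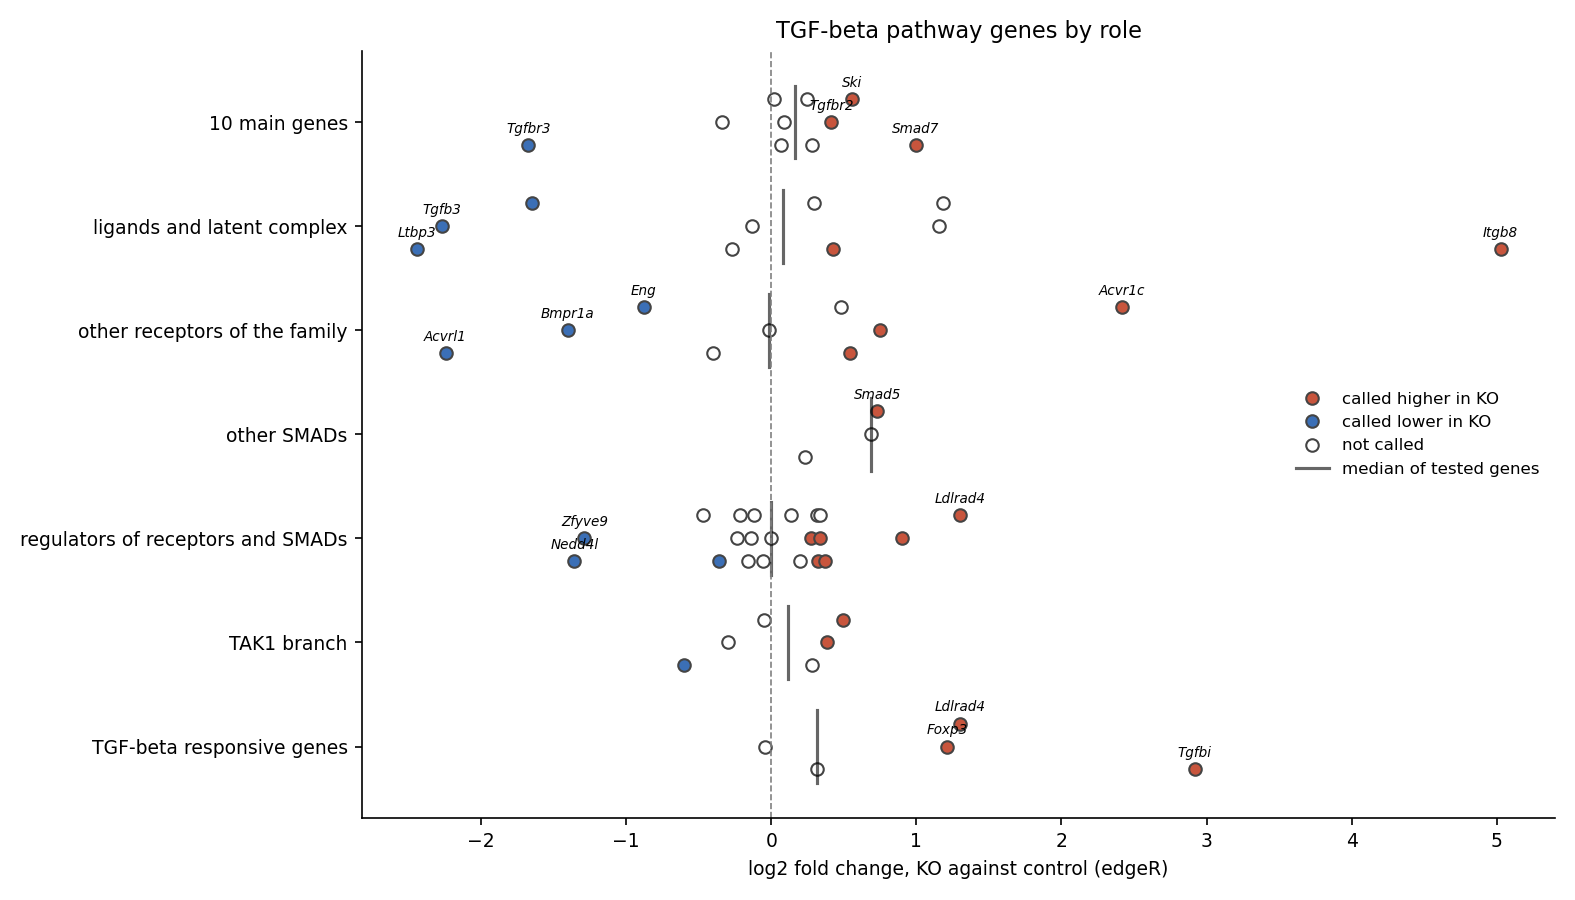
Log2 fold change of KO against control (horizontal axis, edgeR) for tested pathway genes by role (rows), red where called higher, blue where called lower and white where not called. Vertical bars are medians, points are staggered only for legibility, some listed genes are not drawn, and names are printed for the called genes among the 10 and for others chosen by rule that changed most. Itgb8, which passed the filter only through its KO libraries, lies farthest to the right at 5.03, and the medians of the lists lie between −0.014 and 0.69.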

How the data were processed

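The deposited table held whole-number read counts per gene symbol for 6 libraries, made by the authors, with STAR, featureCounts, DESeq2 and the build mm10 named in the submitters' processing notes without roles or versions. Annotation and strand setting were not given in the sources used here. Each column matched 1 sample by its description, and 0 columns were unmatched. Groups came from the sample titles.

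Counts of KO and control were compared with edgeR 4.0.16 in R 4.3.3 (quasi-likelihood test, TMM factors, filterByExpr, no covariate, Benjamini-Hochberg over 14268 genes, call at adjusted p under 0.05). The SE is the absolute log2 fold change over the square root of F, and the 95% interval follows from it. Simulated data with known changes were used to test the fit. They gave every gene the same replicate spread and held no sex or replicate structure, so they do not vouch for the calls here. The common biological coefficient of variation was 0.212. At the lowest member count, 646, counting error alone is 3.93%, so replicate spread sets the precision. Reads had no stated molecular identifiers.

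Libraries of equal number deviated together from their group means (r across genes = 0.270, 0.130 and 0.379 for numbers 1, 2 and 3, all above 0.1), so the numbers were read as pairing, although control replicate 2 had a higher correlation (0.204) with KO replicate 1. What the numbers mean is not given in the sources used here. The libraries numbered 3 also share Y-linked counts, and the part of sex in their correlation was not tested. Alternatives were DESeq2 1.42.0, other scalings and filters, the replicate block, libraries 1 and 2 alone, and leaving out each library.

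Members, lists and alternatives were chosen with earlier results of these data known. Named were all 10 members, Rtf1, in each other list the 3 called genes with the largest change among those averaging 1 CPM or more, and a set written in advance (Lrrc32, Furin, Itgav, Eng, Smad1, Smad5, Smurf1, Smurf2, Rnf111, Pmepa1, Ldlrad4, Itgae, Foxp3 and others). Values of some list members are not reported here, though they enter the list counts and medians. Coordinates and exon lengths are from GENCODE M21 (GRCm38, the assembly of mm10), which held 98.2% of the table's symbols. Of the members' 50-base stretches, 3.85% of those of Tgfbr3 and at most 0.77% of those of each other member occur in transcripts of another gene.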

Additional observations from a re-analysis of the deposited data

How the results depend on the processing

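Over 14 alternatives, the calls and directions of Tgfbr3, Smad7 and Ski held in each. The number of members called ran from 3 to 6 when 1 library was left out and from 4 to 6 otherwise, where 6 was the value with the replicate block. The number of all genes called was 7628 with that block, and from 4460 to 7050 when 1 library was left out. Other pathway genes called numbered 30 with the block and from 14 to 22 with 1 library left out. Beside Smad2, Smad3 and Pmepa1, the block changed no call among the genes named. Signs turned only for genes that were not called. Leaving out 1 library gave ranges of −0.11 to 0.074 for Tgfb1, −0.25 to 0.26 for Tgfbr1, −0.019 to 0.22 for Skil, −0.39 to 0.26 for Lrrc32 and −0.25 to 0.088 for Itgae. With the libraries numbered 1 and 2 alone, Tgfb1 was −0.090, Lrrc32 0.32 and Itgae 0.027, and Itgae was 0.044 when library size alone set the scaling. With those libraries alone the calls of Ltbp3, Ltbp4, Map3k7 and Tab1 were also lost (adjusted p = 0.0537 to 0.0845), and Tgfb3 was −1.03. The cause was not tested. In fits without 1 library the smaller group has 2 libraries, and fewer samples enter the test. With 3 libraries per group an exact permutation test cannot go below p = 0.1.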

Other observations

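Control replicate 3, the control library with Y-linked counts, stood apart from the other control libraries in Tgfb3, Ltbp3 and Lrrc32. It held 26.8 CPM of Tgfb3 against 6.57 and 6.44 CPM in control replicates 1 and 2, 5.84 CPM of Ltbp3 against 1.58 and 0.805 CPM, and 34.3 CPM of Lrrc32 against 15.5 and 17.4 CPM. In KO, replicate 3 was the lowest library for Tgfb3 (2.47, 3.85 and 1.88 CPM in replicate order), the highest for Ltbp3 (0.190, 0.507 and 0.864 CPM) and the middle one for Lrrc32 (16.3, 24.8 and 20.4 CPM). Some other genes of the same list also set control replicate 3 apart, at low levels and in both directions. In replicate order, control libraries held 0, 0.0619 and 0.523 CPM of Ltbp2 and 1.52, 0.949 and 0.166 CPM of Thbs1. Furin and Itgav, of the same list, did not set it apart. In replicate order, control libraries held 1130, 1010 and 1060 CPM of Furin and 185, 138 and 190 CPM of Itgav. For Pmepa1 control replicate 3 was instead the lowest of the 6 libraries, at 80.0 CPM.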
